A study of Mus musculus with 12 samples.

Results

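The 32 genes described here encode components of B cell receptor signalling, picked by gene symbol from the 55359 genes of the deposited table of untreated cells. They are subunits and coreceptors of the antigen receptor, its kinases, adaptors and lipid enzymes, the exchange factors of small GTPases, the proteins of its NF-kB and calcium branches, and ubiquitin ligases that limit it. All 32 were found in each deposited table and all passed the filter on low counts in every comparison. RNA was sequenced from mouse splenic B cells that had been purified by removing CD43-bearing cells with beads. The study asks how hnRNP A1 and hnRNP A2B1, nuclear RNA-binding proteins, act in the germinal centre response of B cells. In double knockout (DKO) mice both genes had been deleted by Cre-loxP recombination, and wild-type (WT) mice were the controls. The sources used here do not give the promoter of Cre, the ages of the mice or whether libraries came from separate animals, and p-values therefore measure only the spread between these libraries. The groups were untreated WT (n = 3), untreated DKO (n = 3), WT stimulated (n = 2) and DKO stimulated (n = 2), and a further pair of untreated WT libraries whose titles set them apart (additional WT, n = 2). Stimulated cells had been cultured for 48 h with anti-CD40 at 1 µg/mL and anti-IgM at 10 µg/mL, the former taking the place of T cell help and the latter of antigen.

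The B cell receptor is a membrane immunoglobulin held by the signalling chains CD79A and CD79B. When antigen clusters it, Src family kinases and SYK phosphorylate these chains, and the adaptor BLNK then brings BTK and phospholipase C gamma together. The lipid products open calcium stores and activate protein kinase C beta, which feeds BCL10, MALT1 and NF-kB, while phosphoinositide 3-kinase and small GTPases carry the signal to growth and the cytoskeleton. Adaptors such as DOK3 and ligases such as CBL dampen it, so that the strength of the signal shapes B cell survival and subset fate in the spleen.

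The libraries held 15090953 to 21731893 counts. Hnrnpa1 had 682 to 719 CPM in the 3 untreated WT libraries and 78.5 to 204.5 CPM in the 3 untreated DKO libraries, with the most in DKO number 2. CPM are counts per 1000000 counts of a library, scaled with TMM factors over the 12 libraries. Hnrnpa2b1 had 1720 to 1959 and 342.5 to 636 CPM in these groups. In stimulated WT and DKO libraries Hnrnpa1 had 1678 to 1729 and 246 to 277 CPM, and Hnrnpa2b1 1789 to 1814 and 362 to 433 CPM. Among the libraries, WT number 2 and DKO number 1 of the untreated cells read as female, with Xist at 2040 and 2050 CPM against at most 6.66 in the other 10. The 2 stimulated DKO libraries differed from each other by over 1.2-fold in 13 of the 32 genes, while the 2 stimulated WT libraries did so in 0. Pairs of untreated libraries of the same genotype did so in 0 to 8 of the 32, the most for WT numbers 1 and 2. The share of all genes over 1.2-fold in these pairs was not determined. The additional WT libraries lay outside the range of the numbered WT libraries in 24 of the 32 genes, 12 above and 12 below, where 72.1% of all 13534 genes compared did so (34.6% above and 37.5% below). Of the markers that define B cells, all 8 (such as Pax5 and Ebf1) were above 94 CPM in every library, with a summed level of 4565 to 4959 CPM in untreated WT, 3515 to 4357 in untreated DKO, 7522 to 7739 in stimulated WT and 5030 to 6583 in stimulated DKO libraries.

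The receptor chains stood highest among the 32 genes when counts were divided by exonic length (CPM per kb). In untreated WT cells Cd79a had 479 ± 63.9 (mean ± SD, n = 3) CPM per kb and Cd79b 217 ± 20.1. They were followed by Grb2, a bridge from tyrosine kinases to Ras, at 127 ± 9.70, and Ms4a1, which encodes the surface protein CD20, at 118 ± 2.89 CPM per kb. Grb2 and Ms4a1 did not differ beyond their spread. The enzyme that cleaves phosphoinositides, Plcg2, had 65.7 ± 0.572, the tetraspanin gene Cd81 60.5 ± 0.831 and the phosphoinositide 3-kinase adaptor Pik3ap1 58.7 ± 2.42 CPM per kb. Vav1 (48.3 ± 1.73) and Syk (47.9 ± 2.28) lay within each other's spread, and so did Btk (41.9 ± 0.320) and Prkcb (41.5 ± 7.40). At the bottom were Sos1 at 5.07 ± 0.602, Cblb at 4.69 ± 0.111 and the endoplasmic reticulum calcium sensor gene Stim1 at 3.66 ± 0.354 CPM per kb. In untreated WT cells 24 of the 32 exceeded 10 CPM per kb, and the median was 31.4. The same number exceeded it in untreated DKO cells, with a median of 22.8. The median lay between Rasgrp3 and Bank1 in WT cells but between Nfatc1 and Vav2 in DKO cells, so the gap between the medians does not measure a change.

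**Figure D1:**
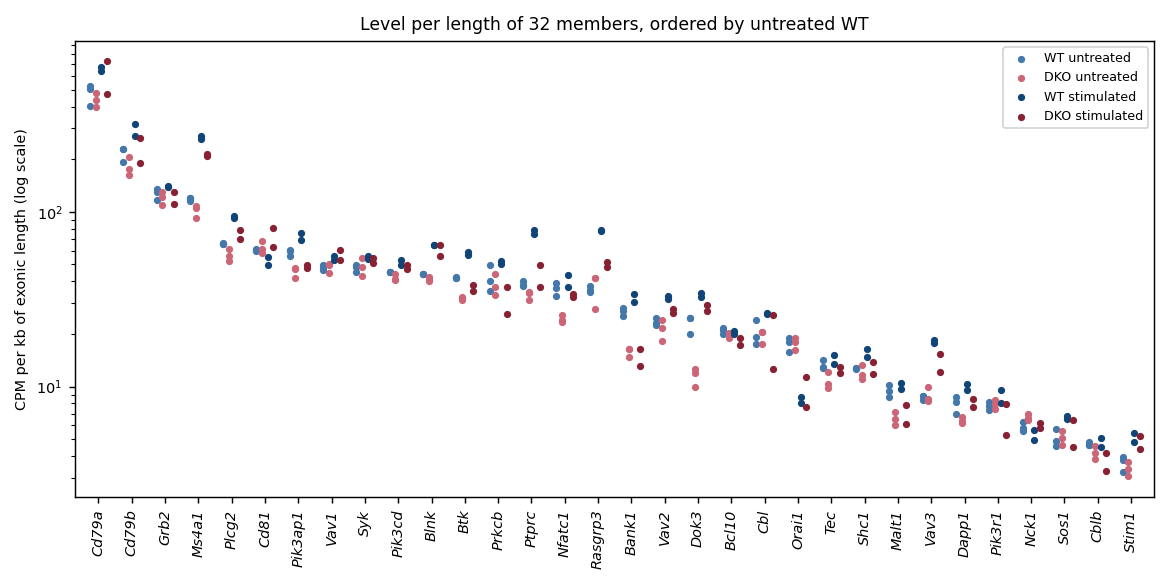
Level of each of the 32 genes per kb of exonic length (vertical axis, CPM per kb, log scale), 1 point per library, ordered by the mean in untreated WT cells. Cd79a and Cd79b lead and Stim1 is lowest; the stimulated libraries lie above the untreated ones for Ms4a1, Vav3 and Rasgrp3 in WT cells and below them for Orai1.

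In untreated cells, 7 of the 32 genes were lower in DKO than in WT cells and 0 were higher. They were the adaptor genes Dok3, Bank1 and Pik3ap1, the kinase genes Btk and Tec, the protease gene Malt1 and the transcription factor gene Nfatc1. Over all 13561 tested genes 19.5% passed, 10.6% lower and 8.81% higher, so the members passed about as often as genes in general, and all of those that passed were lower. The median log2 change was -0.13 over the 32 genes and -0.01 over all genes. At an unadjusted p of 0.05 there were 12 members, against 34.7% of all genes. On the scale of the levels, 14 of the 32 had all DKO libraries below all WT libraries and 1 had them above, where 39.3% of all genes did not overlap (20.4% higher and 18.9% lower).

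Among the adaptors, Dok3 (ENSMUSG00000035711, GRCm39 chr13:55671044-55677109, minus strand) encodes a scaffold that recruits inhibitory phosphatases to the receptor. It had 61.05, 49.3 and 60.6 CPM in WT numbers 1, 2 and 3 and 24.4, 29.6 and 30.9 CPM in DKO numbers 1, 2 and 3. The groups did not overlap, and Dok3 changed by -1.03 ± 0.12 on the log2 scale (± SE; adjusted p = 0.00206 by edgeR's quasi-likelihood test, with p-values adjusted over all tested genes), which is 2.03-fold lower. Bank1 (ENSMUSG00000037922, GRCm39 chr3:135759124-136031827, minus strand) encodes a B cell scaffold with ankyrin repeats that couples the receptor to calcium release. Its level was 189, 211 and 201.5 CPM in the WT libraries and 111, 123 and 123 CPM in the DKO libraries. Every DKO library was far below every WT library, with a log2 change of -0.77 ± 0.08 (adjusted p = 0.00142), or 1.70-fold lower. Pik3ap1 (ENSMUSG00000025017, GRCm39 chr19:41260816-41373541, minus strand), also known as BCAP, links the coreceptor to phosphoinositide 3-kinase. It had 312, 334 and 336 CPM in WT and 233, 263 and 266 CPM in DKO libraries, a log2 change of -0.38 ± 0.08 (adjusted p = 0.0122). The groups stood apart by a smaller margin than for Bank1, and without WT number 3 the call was lost (-0.36, adjusted p = 0.0612). The other 5 adaptor genes (Blnk, Dapp1, Grb2, Shc1 and Nck1) did not pass, with log2 changes from -0.32 ± 0.10 for Dapp1 (adjusted p = 0.0625) to 0.17 ± 0.09 for Nck1. For Blnk, the central scaffold, the interval of the log2 change was -0.25 to 0.03 (95% confidence).

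Among the kinases, Btk (ENSMUSG00000031264, GRCm39 chrX:133443085-133484319, minus strand) had 131, 132 and 133 CPM in WT and 98.05, 102.5 and 101 CPM in DKO libraries. The 3 values of each group lay close together and the groups did not overlap, with a log2 change of -0.40 ± 0.07 (adjusted p = 0.00538). Btk is the only one of the 32 on chromosome X, and in the 4 untreated libraries that read as male the change was -0.38 (adjusted p = 0.00571). Its relative Tec (ENSMUSG00000029217, GRCm39 chr5:72913059-73025826, minus strand) had 47.5, 48.3 and 53.1 CPM in WT and 45.1, 38.5 and 36.95 CPM in DKO libraries, a log2 change of -0.32 ± 0.10 (adjusted p = 0.0480). The Tec groups were separated by a narrow gap, and the call was lost on leaving out any 1 of WT numbers 1, 2 and 3 or DKO numbers 2 and 3 (adjusted p from 0.0610 to 0.198). Syk, the kinase that docks on the phosphorylated receptor chains, had 467, 425 and 454 CPM in WT and 404, 454 and 511 CPM in DKO libraries. The Syk groups overlapped, and the interval of the log2 change was -0.20 to 0.22.

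In the NF-kB branch, Malt1 (ENSMUSG00000032688, GRCm39 chr18:65564009-65612138, plus strand) encodes the paracaspase that cleaves NF-kB inhibitors. It had 157, 183 and 171 CPM in WT and 129, 108 and 118 CPM in DKO libraries, a log2 change of -0.54 ± 0.09 (adjusted p = 0.00591). No Malt1 value of DKO cells reached the lowest of WT cells. Its partner Bcl10 stood at -0.10 ± 0.07 (adjusted p = 0.327), and Prkcb, the protein kinase C isoform upstream of them, at -0.13 ± 0.14 (adjusted p = 0.556). In the calcium branch, Nfatc1 (ENSMUSG00000033016, GRCm39 chr18:80649420-80756286, minus strand) encodes a transcription factor that calcineurin sends to the nucleus. It had 248, 292 and 275 CPM in WT and 193, 175 and 178 CPM in DKO libraries, a log2 change of -0.59 ± 0.08 (adjusted p = 0.00319). All DKO values of Nfatc1 were again below all WT values. Stim1 and Orai1, the sensor and the pore of store-operated calcium entry, had log2 changes of -0.13 ± 0.11 (adjusted p = 0.434) and 0.00 ± 0.10 (adjusted p = 0.985).

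None of the receptor and coreceptor genes, lipid enzymes, exchange factors or ubiquitin ligases passed in untreated cells. Cd79a had 737, 591 and 764 CPM in WT and 579, 694 and 632 CPM in DKO libraries, so the groups overlapped, with an interval of -0.40 to 0.10 for the log2 change. For Cd79b, Ms4a1, Ptprc and Plcg2 the log2 changes were -0.28, -0.24, -0.22 and -0.23, with adjusted p from 0.0614 to 0.0951. Cd79b passed in the libraries that read as male (-0.27, adjusted p = 0.0419), without WT number 2 (-0.36, 0.0388) and without DKO number 2 (-0.38, 0.0441), and Dapp1 passed in the first 2 of these fits (-0.37, 0.0264 and -0.41, 0.0240). The 5 exchange factor genes lay between -0.16 ± 0.10 for Vav2 and 0.03 ± 0.14 for Rasgrp3. Cbl and Cblb, which mark active kinases for degradation, had -0.07 ± 0.12 and -0.18 ± 0.09 (adjusted p = 0.710 and 0.178).

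**Figure D2:**
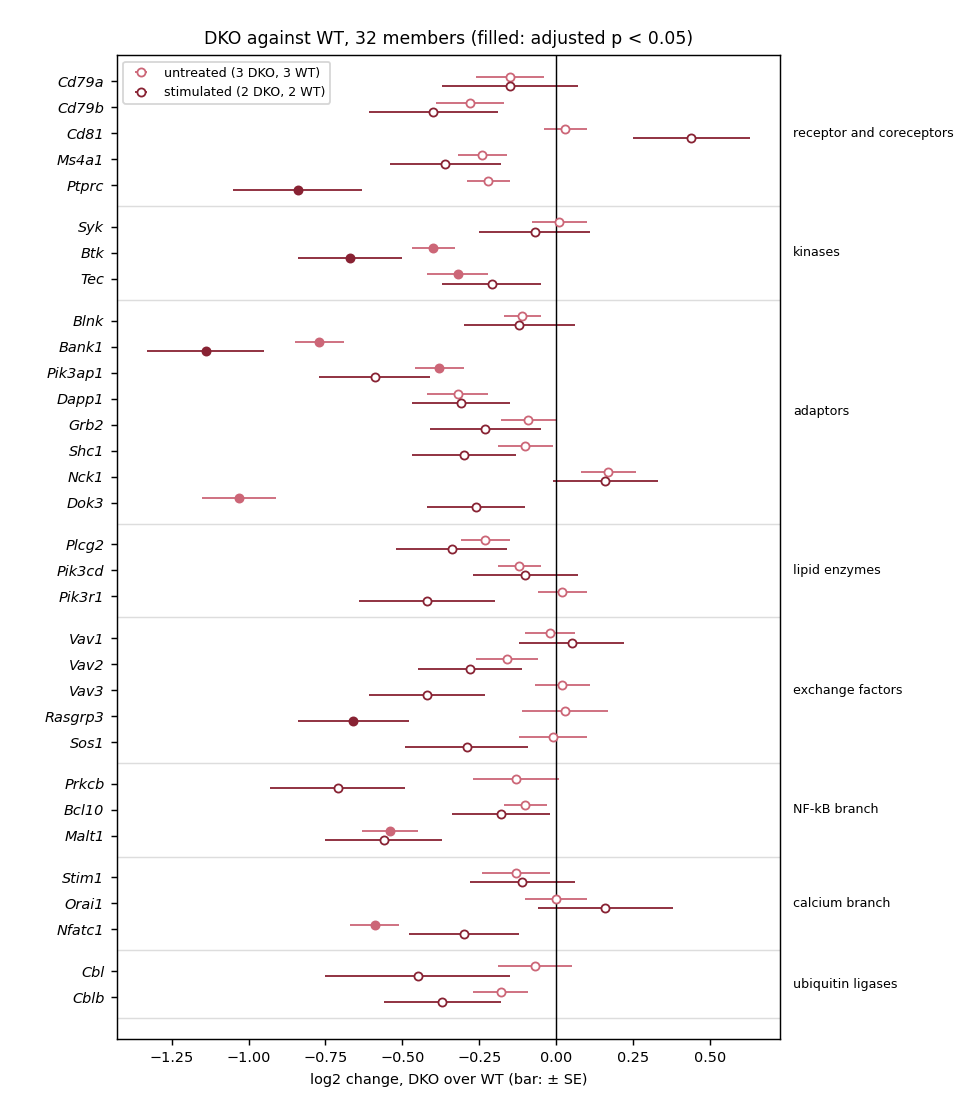
Log2 change of DKO over WT (horizontal axis, point ± SE) for the 32 genes by role, in untreated and stimulated cells, with filled points at an adjusted p below 0.05. Filled points lie to the left of 0 in both states, 7 in untreated and 4 in stimulated cells, and Bank1 and Btk are filled in both.

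The additional WT libraries give further untreated WT values for these 7 genes. Bank1 had 201 and 210 CPM in them, Nfatc1 290 and 253, Malt1 242 and 167, Dok3 47.7 and 45.0, Pik3ap1 305 and 295.5, and Tec 56.5 and 51.3. For these 6 genes every untreated DKO library was below all 5 WT libraries. Only the additional pair is new in this, since all 7 genes were already below the numbered WT libraries. The share of all genes below all 5 was not determined. For Btk the additional WT libraries had 98.1 and 106 CPM, a range that overlaps the 98.05 to 102.5 CPM of the DKO libraries. With the additional libraries counted as WT, 3 of the 32 genes passed, Bank1 (-0.78, adjusted p = 0.0226), Dok3 (-0.91, adjusted p = 0.0331) and Nfatc1 (-0.59, adjusted p = 0.0439). The calls of Malt1 (-0.65, adjusted p = 0.0820), Tec (-0.36, 0.144), Pik3ap1 (-0.33, 0.147) and Btk (-0.26, 0.307) were then lost, and over all genes 319 passed in place of 2638.

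Markers of B cell subsets moved with genotype in the same libraries. The summed level of 10 marginal zone genes was 547 to 648 CPM in untreated WT, 580 to 600 in additional WT and 453 to 466 CPM in untreated DKO libraries, and 5 of the 10 passed, all lower. The B1 cell genes summed to 405 to 423, 508 to 526 and 331 to 361 CPM in these groups, with 5 of 8 tested lower. The 5 genes listed as transitional were Cd93, Vpreb3, Ms4a4c, Cd24a and Spn, the gene of CD43. They summed to 482 to 583, 951 to 1021 and 240 to 415 CPM, with 4 lower. The 6 follicular genes summed to 953 to 1089, 1295 to 1577 and 1183 to 1433 CPM, with 2 higher and 2 lower. Over all genes tested in untreated cells 10.6% were lower and 8.81% higher. In stimulated cells the marginal zone genes summed to 448 to 492 CPM in WT and 314 to 359 CPM in DKO libraries, and the transitional genes to 799 to 846 and 418 to 424 CPM. The B1 genes (313 to 332 and 321 to 333 CPM) and the follicular genes (1928 to 2134 and 1753 to 2632 CPM) overlapped between stimulated WT and DKO libraries. In stimulated cells 3 of 10 marginal zone genes and 3 of 5 transitional genes were lower. Of 8 B1 genes 2 were lower and 1 was higher, and of 6 follicular genes 1 was lower and 1 was higher. Over all genes 6.17% were lower and 5.09% higher. In bulk RNA, fewer cells of a subset and less RNA per cell cannot be told apart, and the part of subset composition in the results above was not tested. The 10 T cell genes summed to 21.5 to 25.6 CPM in untreated WT and 8.31 to 10.9 CPM in untreated DKO libraries. Only 4 of the 10 passed the filter there, of which 1 was lower and 0 were higher, with a median log2 change of -0.08. Cd3d, Cd3e, Cd4, Cd8a and Cd28 stayed under 1 CPM in all 12 libraries.

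Promoter windows of Bank1 and Btk, which were lower in DKO cells in both states, and of Dok3, which had the largest change in untreated cells, are given here from RefSeq (GRCm38.p6), where 28 of the 32 genes had an entry. Each window runs from 250 to 31 bases before the annotated start, 5′ to 3′ on the gene's strand, and all 3 genes lie on the minus strand. The windows are at chr3:136326097-136326316 for Bank1, chrX:134583171-134583390 for Btk and chr13:55528569-55528788 for Dok3. Capitals mark a match to any of 3 motifs of B cell transcription factors, searched on both strands.
Bank1: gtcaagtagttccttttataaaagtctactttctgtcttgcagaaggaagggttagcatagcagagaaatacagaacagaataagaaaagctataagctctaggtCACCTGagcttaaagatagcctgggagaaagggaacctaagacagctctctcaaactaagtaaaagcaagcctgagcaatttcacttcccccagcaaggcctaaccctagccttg
Btk: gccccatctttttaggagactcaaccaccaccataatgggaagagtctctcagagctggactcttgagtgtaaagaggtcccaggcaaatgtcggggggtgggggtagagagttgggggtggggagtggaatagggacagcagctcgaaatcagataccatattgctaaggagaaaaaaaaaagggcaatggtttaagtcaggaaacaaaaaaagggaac
Dok3: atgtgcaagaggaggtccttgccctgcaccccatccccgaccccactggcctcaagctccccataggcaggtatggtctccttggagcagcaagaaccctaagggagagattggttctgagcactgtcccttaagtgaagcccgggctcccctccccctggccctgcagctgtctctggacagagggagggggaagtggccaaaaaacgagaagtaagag
The motifs were the octamer ATGCAAAT of OCT factors, the E-box CAGGTG of E proteins and the PU.1 core GAGGAA. The 1 match in these windows was an E-box of Bank1, which reads CACCTG on the printed strand, from 145 to 140 bases before the start, and the Btk and Dok3 windows held none of these letters. Over the 28 genes, at any annotated start, the E-box was found in 8 (17.6% of all 27025 genes with a window), the PU.1 core in 7 (22.9%) and the octamer in 3 (1.69%), namely Blnk, Orai1 and Prkcb. These matches describe the letters of the windows only.

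In stimulated cells, 4 of the 32 genes were lower in DKO than in WT cells and 0 were higher. They were Bank1, Btk, the phosphatase gene Ptprc and the Ras exchange factor gene Rasgrp3. Over all 14430 tested genes 11.3% passed, 6.17% lower and 5.09% higher. The median log2 change was -0.30 over the 32 genes and -0.03 over all genes, and 28 of the 32 had a change below 0, against 52.2% of all genes. On the scale of the levels, 25 had both DKO libraries below both WT libraries and 2 had them above, where 61.5% of all genes did not overlap (30.5% higher and 31% lower).

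Bank1 had 227 CPM in WT number 1 and 254 CPM in the WT library without a number, against 97.7 and 123 CPM in DKO numbers 1 and 2. The DKO values were under those of WT by more than the gap within either pair, with a log2 change of -1.14 ± 0.19 (adjusted p = 0.0103), or 2.2-fold lower. Ptprc (ENSMUSG00000026395, GRCm39 chr1:137990599-138103446, minus strand) encodes CD45, the phosphatase that keeps Src family kinases ready. It had 1375 and 1433 CPM in WT and 682 and 906 CPM in DKO libraries, a log2 change of -0.84 ± 0.21 (adjusted p = 0.0382). The DKO pair differed in Ptprc more than the WT pair did. Rasgrp3 (ENSMUSG00000071042, GRCm39 chr17:75742891-75836049, plus strand), which loads Ras with GTP when diacylglycerol is made, had 452 and 460 CPM in WT and 281 and 300.3 CPM in DKO libraries, a log2 change of -0.66 ± 0.18 (adjusted p = 0.0435). Btk had 186 and 178 CPM in WT and 111 and 121 CPM in DKO libraries, a log2 change of -0.67 ± 0.17 (adjusted p = 0.0400). In both genes the pairs lay close together and did not overlap.

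The genes that passed in untreated cells only had log2 changes in stimulated cells of -0.59 ± 0.18 for Pik3ap1 (adjusted p = 0.0598), -0.56 ± 0.19 for Malt1 (0.0920), -0.30 ± 0.18 for Nfatc1 (0.300), -0.26 ± 0.16 for Dok3 (0.307) and -0.21 ± 0.16 for Tec (0.419). Dok3 had 79.6 and 84.3 CPM in WT and 72.0 and 66.4 CPM in DKO libraries, a gap much smaller than in untreated cells. Prkcb had 382 and 401 CPM in WT and 200 and 284 CPM in DKO libraries, with a log2 change of -0.71 ± 0.22 (adjusted p = 0.0644). With DESeq2 both Pik3ap1 and Prkcb passed as lower (-0.57, adjusted p = 0.0185, and -0.69, adjusted p = 0.0148). Cd81 had the highest change of the 32, with 143 and 158 CPM in WT and 234 and 181.5 CPM in DKO libraries, a log2 change of 0.44 ± 0.19 (adjusted p = 0.148). Cd81 passed as higher in 1 fit over 10 libraries (0.49, adjusted p = 0.0250) and without DKO number 2 (0.64, adjusted p = 0.000185). Syk stood at -0.07, with an interval of -0.47 to 0.33, and Cd79a at -0.15, with an interval of -0.66 to 0.35.

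**Figure D3:**
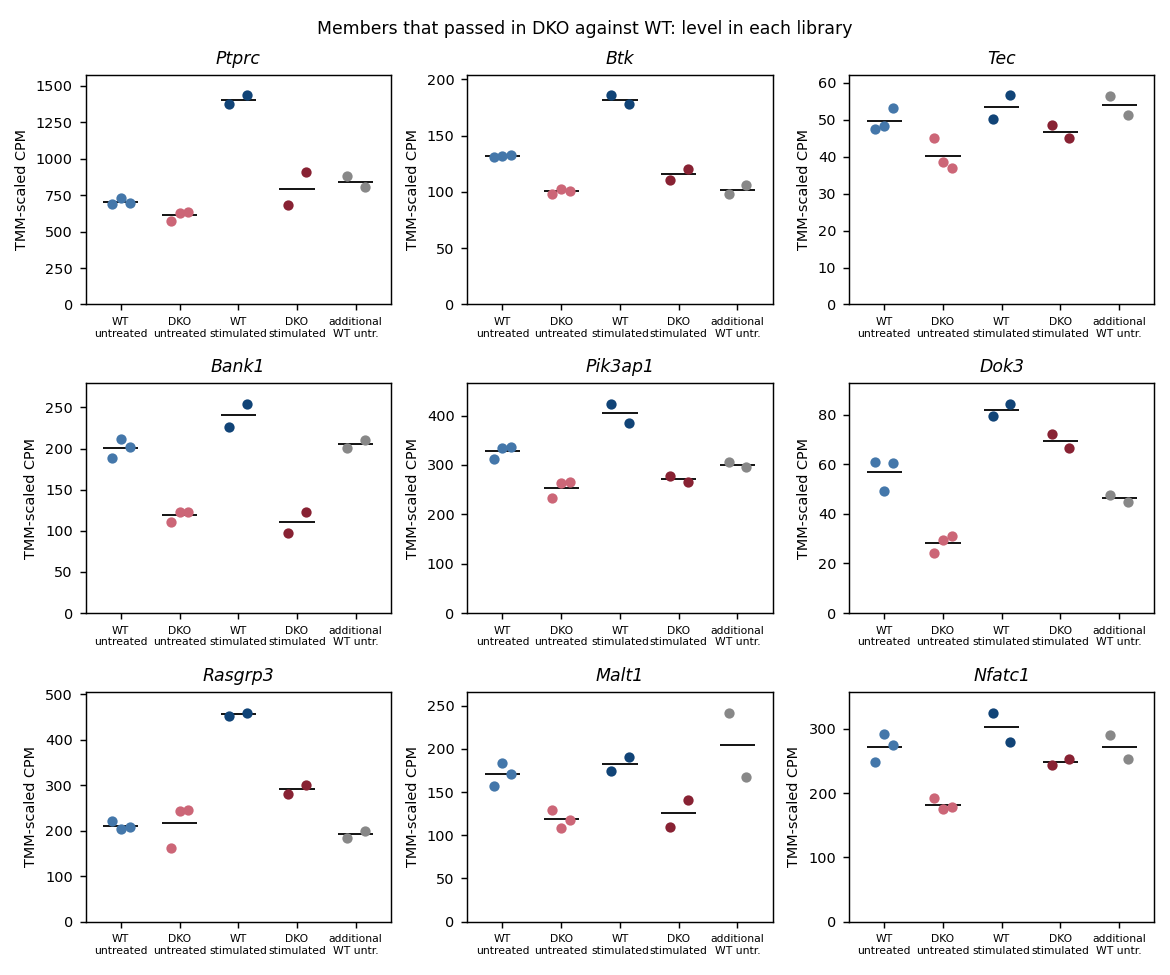
CPM (vertical axis, TMM-scaled) of the 9 genes that passed in DKO against WT in either state, 1 point per library, with group means as lines and additional WT libraries in grey. Bank1 in DKO libraries stays between 97.7 and 123 CPM in both states, and Rasgrp3 overlaps between genotypes in untreated cells but not in stimulated cells.

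The 2 stimulated DKO libraries set limits on these values. DKO number 1 over number 2 ranged from a log2 ratio of -1.03 for Cbl, with 156 and 318 CPM, to 0.61 for Cd79a, with 1056 and 690 CPM. The ratio fell with exonic length, with Spearman's rho = -0.74 across the 32 genes and -0.31 across 14957 genes, all from the same pair of libraries. Across genes this is a description only, since genes of a library are not independent. For the stimulated WT pair rho was -0.10 and 0.03. Untreated pairs of the same genotype showed such trends as well. Their rho across the members ran from -0.62 for DKO number 2 over number 3 (-0.19 across all genes) to 0.54 for WT number 2 over number 3 (0.04 across all genes). The log2 change of DKO over WT in stimulated cells also went down with length, with rho = -0.40 across the members and -0.17 across 14195 genes. In untreated cells rho was 0.02 and -0.12, and for the interaction of genotype and stimulation it was -0.48 and -0.12. The part of the difference between the 2 stimulated DKO libraries in the results was not tested. Without DKO number 1, 13 of the 32 passed, all lower, against 23.0% of all genes (12.1% lower). Without number 2 it was 16, with 14 lower, against 39.5% of all genes (19.7% lower), so calls became more frequent among genes in general too. Bank1, Btk, Ptprc and Rasgrp3 were among the lower ones in both fits. Without WT number 1, Bank1 alone passed (4.9% of all genes), and without the WT library that has no number 0 passed (3.79% of all genes; Bank1, adjusted p = 0.0581). In these last 2 fits Btk, Ptprc and Rasgrp3 had adjusted p from 0.149 to 0.408.

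**Figure D4:**
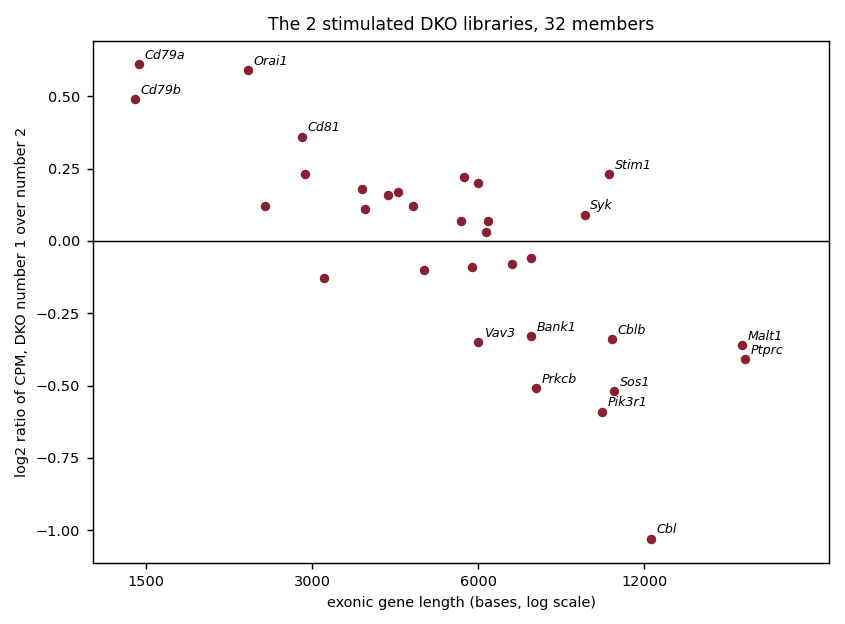
Log2 ratio of CPM between the 2 stimulated DKO libraries (vertical axis, number 1 over number 2) against exonic length in bases (horizontal axis, log scale) for the 32 genes. Short genes such as Cd79a (0.61) lie above 0 and long ones such as Cbl (-1.03) below it.

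Stimulation was compared with the untreated state within each genotype. In WT cells 10 of the 32 genes rose and 1 fell, against 17.8% higher and 22.8% lower (40.6% in all) of 15006 tested genes. In DKO cells 9 rose and 1 fell, against 16.2% higher and 16.8% lower (33% in all). The median log2 change of the members was 0.28 in WT and 0.22 in DKO cells, beside -0.02 and -0.01 over all genes. Of the 32 genes, 8 rose in both genotypes (Ms4a1, Ptprc, Blnk, Dok3, Plcg2, Vav2, Vav3 and Stim1), Orai1 fell in both, and 20 passed in neither. The shares of all genes that passed in both genotypes or in neither were not determined, so these counts have no background beside them. Without DKO stimulated number 2, 17 members passed in WT cells, against 44.5% of all genes, and 15 in DKO cells, against 28.0%. In that fit Pik3r1 (-0.55, adjusted p = 0.0102) and Cbl (-0.59, adjusted p = 0.0280) were lower in DKO cells as well, and Cd81 in WT cells (-0.24, adjusted p = 0.0471). Stimulated and untreated cells were deposited in separate tables and only the former were cultured, so stimulation, time in culture and table cannot be told apart.

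At the cell surface, Ms4a1 had 744, 712 and 741.5 CPM in untreated and 1619 and 1689 CPM in stimulated WT libraries, a log2 change of 1.15 ± 0.11 (adjusted p = 6.10e-06). In DKO cells it went from 568, 669 and 647 CPM to 1317 and 1288 CPM, a change of 1.06 ± 0.11 (adjusted p = 1.38e-05). Both genotypes thus had a gap far wider than the spread of any group. Ptprc had 688, 732 and 697 CPM in untreated and 1375 and 1433 CPM in stimulated WT libraries (0.97 ± 0.12, adjusted p = 6.76e-05). In DKO libraries it had 569.5, 629 and 637 CPM untreated and 682 and 906 CPM stimulated (0.38 ± 0.12, adjusted p = 0.0307). The DKO call of Ptprc was lost in 8 of 18 alternative fits, among them without DKO stimulated number 2 (0.19). It was also lost without WT untreated number 3 or any of the 3 untreated DKO libraries (adjusted p from 0.0522 to 0.0999). Cd79a and Cd79b stood at 0.43 ± 0.17 and 0.42 ± 0.16 in WT cells (adjusted p = 0.0634 and 0.0548) and at 0.47 ± 0.17 and 0.34 ± 0.16 in DKO cells (adjusted p = 0.0530 and 0.124). With DESeq2, Cd79a passed in both (0.47, adjusted p = 0.0239, and 0.49, adjusted p = 0.0205) and Cd79b in WT cells (0.45, adjusted p = 0.0203). Without either stimulated DKO library both passed in WT cells, and without number 2 both passed in DKO cells (0.76 and 0.58).

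Among the exchange factors, Vav3, an activator of Rac, rose by 1.04 ± 0.12 in WT cells (adjusted p = 3.83e-05), from 50.4, 53.2 and 53.0 CPM to 107 and 111 CPM. In DKO cells it rose by 0.63 ± 0.12 (adjusted p = 0.00199), from 49.9, 51.1 and 59.5 CPM to 72.3 and 92.4 CPM. Vav2 rose by 0.44 ± 0.12 and 0.35 ± 0.12 (adjusted p = 0.0118 and 0.0422), close to the threshold. In WT cells the Vav2 call was lost in 3 of 18 alternative fits, among them those without either stimulated WT library. In DKO cells it was lost in 11 of 18, among them those without any 1 library other than untreated DKO number 3. Vav1 stood at 0.15 ± 0.11 and 0.25 ± 0.11 (adjusted p = 0.312 and 0.111). Rasgrp3 rose in WT cells by 1.09 ± 0.15 (adjusted p = 0.000167), from 221, 202.5 and 209 CPM to 452 and 460 CPM. In DKO cells it had 163, 243 and 246 CPM untreated and 281 and 300.3 CPM stimulated, a change of 0.43 ± 0.16 (adjusted p = 0.0512). DKO number 1, which reads as female, had the lowest untreated value of Rasgrp3. The DKO change passed without untreated DKO number 2 (0.53, adjusted p = 0.0404) or number 3 (0.53, adjusted p = 0.0354), and with DESeq2 (0.45, adjusted p = 0.0218).

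In the calcium branch, Orai1 fell in WT cells from 36.2, 43.5 and 41.3 CPM to 19.9 and 18.6 CPM, a log2 change of -1.09 ± 0.17 (adjusted p = 0.000372). In DKO cells it fell from 43.3, 41.3 and 37.2 CPM to 26.2 and 17.4 CPM (-0.88 ± 0.17, adjusted p = 0.00201). Orai1 was the only member that passed as lower in the reported fits, and its stimulated values were below all untreated values in both genotypes, although the additional WT libraries had 30.2 and 24.95 CPM. Stim1 rose by 0.46 ± 0.13 in WT and 0.51 ± 0.13 in DKO cells (adjusted p = 0.0138 and 0.00993). The call of Stim1 was lost in 3 of 18 alternative fits in WT cells and in 2 of 18 in DKO cells. Among these were, in WT cells, the fit without the stimulated WT library that has no number (0.38) and, in DKO cells, that without stimulated DKO number 1 (0.37). Nfatc1 rose in DKO cells by 0.46 ± 0.12 (adjusted p = 0.0105) and stood at 0.13 ± 0.12 in WT cells (adjusted p = 0.410). The DKO call of Nfatc1 was lost in 1 of 18 alternative fits.

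Of the adaptors, Dok3 rose by 0.50 ± 0.13 in WT cells (adjusted p = 0.00893) and by 1.30 ± 0.13 in DKO cells (adjusted p = 1.61e-05), the largest rise of a member in DKO cells. The WT call of Dok3 was lost in 2 of 18 alternative fits, 1 of them without the stimulated WT library that has no number (0.47). Blnk rose by 0.54 ± 0.11 and 0.56 ± 0.11 (adjusted p = 0.00166 and 0.00163), and its WT call was lost in 1 of 18 alternative fits. Bank1 stood at 0.24 ± 0.12 and -0.10 ± 0.12 (adjusted p = 0.126 and 0.539). Among enzymes, Plcg2 rose by 0.48 ± 0.11 in WT and 0.41 ± 0.11 in DKO cells (adjusted p = 0.00507 and 0.0156). The WT call of Plcg2 was lost in 1 of 18 alternative fits. Its DKO call was lost in 4 of 18, among them without DKO number 1 of either state (adjusted p = 0.0551 without the untreated one). Btk rose by 0.44 ± 0.09 in WT cells (adjusted p = 0.00274) and stood at 0.21 ± 0.09 in DKO cells (adjusted p = 0.112). None of the 3 NF-kB branch genes and neither ubiquitin ligase gene passed in either genotype.

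**Figure D5:**
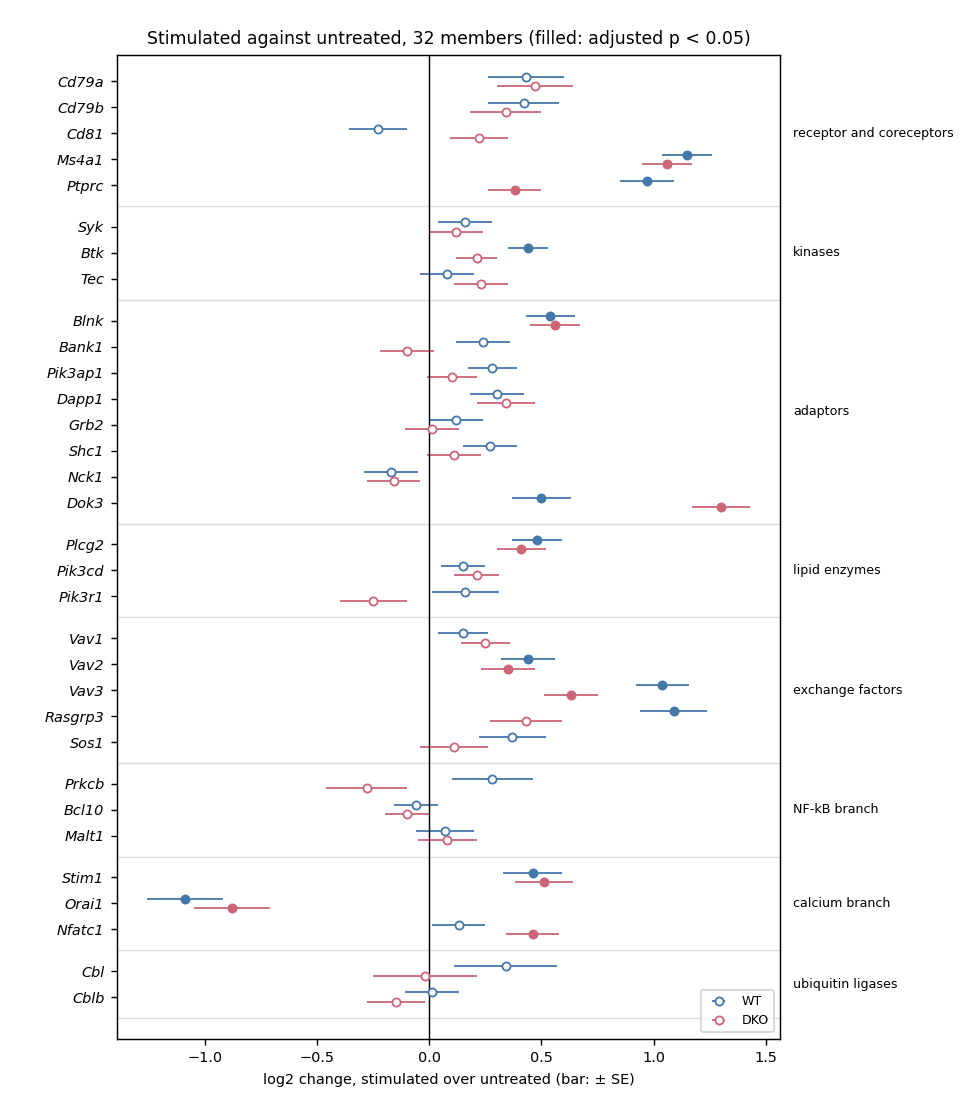
Log2 change of stimulated over untreated cells (horizontal axis, point ± SE) for the 32 genes by role, in WT and DKO cells, with filled points at an adjusted p below 0.05. Ms4a1 is at 1.15 and 1.06 and Orai1 at -1.09 and -0.88, while Dok3 is at 0.50 in WT and 1.30 in DKO cells.

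Whether the genotype difference depended on stimulation was tested as an interaction. By edgeR 0 of the 32 genes passed, where 21 of 15006 genes (0.14%; 0.133% higher and 0.00666% lower) did, and 6 of the 32 had an unadjusted p under 0.05, against 12% of all genes. With DESeq2 1 of the 32 passed, Dok3, at 0.79 (adjusted p = 0.0236). In edgeR the interaction of Dok3 was 0.80 ± 0.19 (adjusted p = 0.145), and the separate fits put the DKO level of Dok3 at 0.491 times that of WT in untreated and 0.835 times in stimulated cells. The most negative terms were those of Rasgrp3, -0.66 ± 0.22 (adjusted p = 0.293), and Ptprc, -0.59 ± 0.17 (adjusted p = 0.261). Without DKO stimulated number 2 there were 5 calls (Cd81, Ptprc, Dok3, Pik3r1 and Cbl), against 7.87% of all genes, and without DKO untreated number 1 there was 1, Rasgrp3 (-0.83, adjusted p = 0.0443). A gene called in 1 state and not in the other is therefore not shown to differ between the states.

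The rest of the pathway was followed through 81 further genes, from other receptors, kinases, phosphatases, channels and NF-kB, MAP kinase and AKT components. In untreated cells 14 of 78 tested were lower in DKO cells and 3 were higher, with a median log2 change of -0.12. This is 21.8% of those tested, beside 19.5% of all genes. Large changes were those of Orai3 (-1.01 ± 0.15, adjusted p = 0.00401), the inhibitory Fc receptor gene Fcgr2b (-0.91 ± 0.11, adjusted p = 0.00230) and Orai2 (-0.87 ± 0.16, adjusted p = 0.00752). In stimulated cells 11 of 78 were lower and 3 higher (17.9%, beside 11.3% of all genes), with a median of -0.21. Large changes there were those of Fos (2.30 ± 0.57, adjusted p = 0.0362), at 0.295 ± 0.0520 CPM in WT and 1.5 ± 0.483 CPM in DKO cells (n = 2 each), Jun (1.66 ± 0.21, adjusted p = 0.00400) and Pirb (-1.53 ± 0.20, adjusted p = 0.00480). Orai2 and Orai3, calcium channel subunits related to Orai1, were lower in DKO cells in both states (stimulated -1.16 ± 0.18 and -1.0 ± 0.17, adjusted p = 0.00820 and 0.0111). Orai3 had 32.2 ± 4.01 CPM in untreated WT, 16.2 ± 2.96 in untreated DKO and 22.6 ± 5.40 in the additional WT libraries. On stimulation 25 of 79 tested rose and 12 fell in WT cells (46.8%, beside 40.6% of all genes), with large changes in Jun (-2.34 ± 0.21, adjusted p = 5.16e-06), Fos (-2.31 ± 0.51, adjusted p = 0.00321) and the adaptor gene Gab2 (-1.90 ± 0.53, adjusted p = 0.0127). Gab2 did not pass the filter on low counts in the fit of stimulated libraries alone. In DKO cells 17 rose and 5 fell (27.8%, beside 33% of all genes), with large changes in the inhibitory adaptor gene Dok2 (1.42 ± 0.42, adjusted p = 0.0198), the Src family kinase gene Fyn (-1.17 ± 0.11, adjusted p = 8.49e-06) and the calcium release channel gene Itpr3 (1.01 ± 0.12, adjusted p = 7.17e-05). Genes of monocytes and macrophages, cells that express Fcgr2b and Pirb too, summed to 240 to 352 CPM in untreated WT, 496 to 574 in additional WT and 154 to 283 CPM in untreated DKO libraries. In stimulated cells these sums were 544 to 622 CPM in WT and 297 to 382 CPM in DKO libraries, which did not overlap. The genes of the list did not move together. In untreated cells 1 of 6 tested was lower in DKO cells, with a median log2 change of -0.14. In stimulated cells 2 of 7 were lower and 1 was higher, with a median of 0.07. Over all genes 10.6% were lower in untreated cells, and 6.17% were lower and 5.09% higher in stimulated cells. The part of monocytes and macrophages in the values of the further pathway genes was not tested.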

How the data were processed

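RNA counts of 12 libraries were analysed. The submitters' processing notes name FastQC 0.10.1, cutadapt 1.9.1, HISAT2 2.2.1, HTSeq 0.6.1 and the build GRCm39. No source used here states the strand setting or the annotation release. The deposited values used were the authors' raw counts per gene and exonic gene lengths, and 12 further columns of FPKM values were not used. A stimulated WT column numbered 3 matches no title and was used as WT without a number.

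Members and lists were chosen with earlier results of these data known. The test was edgeR 4.0.16 in R 4.3.3: a two-sided quasi-likelihood test after TMM scaling and filterByExpr (minimum count 10, minimum total 15), with Benjamini-Hochberg adjustment over all genes and a threshold of 0.05. DKO and WT were compared in separate fits of 6 untreated and 4 stimulated libraries, while stimulation and the interaction used 1 fit of 10 libraries. SEs are the absolute log2 change over the square root of F. Alternatives included DESeq2 1.42.0, other scaling and filters, and leaving out libraries. The code was tested on simulated counts. Named genes were all members, and the 4 largest called changes of the further pathway list in each comparison, of which some are not reported here. The second state of Orai2 and Orai3 was added after its values were seen. In untreated cells, deviations from the group means correlated at -0.36, -0.35 and 0.14 between WT and DKO libraries of the same number. The highest correlation was 0.44, for WT number 2 and DKO number 1, which both read as female. With 3 libraries per group these values cannot show whether the numbers stand for pairs.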

Additional observations from a re-analysis of the deposited data

How the results depend on the processing

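The 32 calls of members in the 5 comparisons were recomputed 523 times in all, of which 467 kept direction and call, 56 lost the call and 0 reversed; 14 of the 32 calls held in every alternative run for them, among them Bank1, Dok3 and Nfatc1 of untreated cells and Ms4a1, Vav3 and Orai1 of both stimulation comparisons. On leaving out 1 library the members called ranged from 5 to 8 for DKO against WT in untreated cells (all genes 923, without WT number 3, to 2779), 0 to 16 in stimulated cells (576 to 5977), 8 to 17 for stimulation in WT cells (3556 to 7031), 7 to 15 in DKO cells (3965 to 5074) and 0 to 5 for the interaction (1 to 1244). Where 1 library is left in a group, it is assumed to vary like the others. When the additional WT libraries joined the WT group, members called were 3 (all genes 319) in untreated DKO against WT and 5 (1887) for stimulation in DKO cells, while all genes called were 2438 for stimulation in WT cells and 2 for the interaction. In 1 fit over 10 libraries, DKO against WT in stimulated cells gave 8 members (3431 genes). The interaction gave 1 member with DESeq2 (174 genes) and 1 with no filter on low counts (491 genes), and no filter gave 2847 genes for DKO against WT in stimulated cells. In the libraries that read as male (chosen after seeing the data), the interaction passed in 62 genes. With the replicate number as a block, 6 members (786 genes) passed in untreated DKO against WT, and in 9 numbered libraries 6 members (2862 genes) for stimulation in WT cells and 1 gene for the interaction. For DKO against WT in stimulated cells no paired analysis was possible because the columns share only 1 number. The groups are of 2 or 3 libraries, and the causes of these differences were not tested.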
